A study of Mus musculus with 38 samples.

Results

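The genes followed here are the semaphorins, plexins, neuropilins, Slits, netrins, Unc5 receptors, Eph receptors and ephrins of mouse embryonic stem cells, matched by symbol. The families were chosen with earlier results of these data known. The rule matched 64 of the 55385 genes in the count table, and 42 of them had counts above 0. These 42 are 4 class 3 semaphorins, 11 membrane semaphorins, 6 plexins, 1 Slit, 2 netrins, 1 Unc5 receptor, 5 ephrin-A and 2 ephrin-B ligands, 6 EphA and 4 EphB receptors. All cells were of the 129S6/SvEvTac strain and were kept on gelatin in serum with leukemia inhibitory factor. In the first batch (26 libraries, 13 groups of 2), wild-type cells had 10 uM BRM014, which blocks the ATPases of the SWI/SNF chromatin remodeller, for 30 min, 1 h, 3 h, 6 h or 24 h. Others had BRM014 for 1 h followed by washout for 30 min or 1 h, or BRM014 for 24 h followed by washout for 6 h or 24 h, and the labels give no dose for these washout groups. The remaining groups of that batch had an inactive analog at 10 uM for 1 h or 24 h, or the vehicle DMSO for 1 h or 24 h. In the second batch (12 libraries, 6 groups of 2), lines labelled Snf2hko and Ino80ko, named for the ATPases of the ISWI and INO80 remodellers, and wild-type cells had 10 uM BRM014 or DMSO for 24 h. The labels give neither the number of clones behind each knockout line nor the cultures the replicates came from, so p-values measure the spread between these libraries, part of which may be technical.

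Semaphorins are secreted or membrane-bound cues that steer growing axons and migrating cells by activating plexins, and the secreted class 3 members use neuropilins as co-receptors. Ephrins are membrane-anchored ligands of the Eph receptor tyrosine kinases, and signalling between them at cell contacts runs in both directions and sorts cells into separate territories. Netrins act through Dcc and Unc5 receptors and Slits through Robo receptors. Outside the nervous system the same families shape blood vessels, epithelia and the early embryo, and Epha2 is a well-known Eph receptor of pluripotent cells.

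The sequences below are the promoters, from 250 bases before to 50 after the start in RefSeq (GRCm38.p6), of 2 members that rose and 2 that fell with BRM014, and are shown because members with large changes differ widely in the CG content of these windows. Capitals mark the CG dinucleotides, of which there are 42 in Sema3c (chr5:17574566-17574865, plus strand), 34 in Ephb6 (chr6:41605261-41605560, plus strand), 10 in Epha2 (chr4:141300971-141301270, plus strand) and 27 in Sema5b (chr16:35541112-35541411, plus strand).
Sema3c: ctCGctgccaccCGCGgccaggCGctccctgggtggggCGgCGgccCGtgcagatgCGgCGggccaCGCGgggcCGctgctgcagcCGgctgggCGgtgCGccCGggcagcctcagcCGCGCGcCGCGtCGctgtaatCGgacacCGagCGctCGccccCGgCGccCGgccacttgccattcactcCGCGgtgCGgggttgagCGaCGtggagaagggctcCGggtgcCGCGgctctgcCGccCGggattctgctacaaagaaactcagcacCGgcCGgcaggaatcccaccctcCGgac
Ephb6: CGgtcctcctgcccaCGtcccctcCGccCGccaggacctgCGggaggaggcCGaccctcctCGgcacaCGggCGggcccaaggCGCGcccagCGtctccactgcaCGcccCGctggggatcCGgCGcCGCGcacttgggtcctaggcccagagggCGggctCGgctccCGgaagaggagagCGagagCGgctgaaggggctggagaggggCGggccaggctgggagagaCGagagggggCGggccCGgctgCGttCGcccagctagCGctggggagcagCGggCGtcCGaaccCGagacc
Epha2: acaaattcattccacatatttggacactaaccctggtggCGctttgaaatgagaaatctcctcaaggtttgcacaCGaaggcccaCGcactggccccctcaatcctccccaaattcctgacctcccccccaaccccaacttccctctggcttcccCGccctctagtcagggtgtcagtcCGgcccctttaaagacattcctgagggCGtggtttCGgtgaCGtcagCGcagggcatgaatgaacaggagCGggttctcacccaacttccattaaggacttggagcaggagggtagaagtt
Sema5b: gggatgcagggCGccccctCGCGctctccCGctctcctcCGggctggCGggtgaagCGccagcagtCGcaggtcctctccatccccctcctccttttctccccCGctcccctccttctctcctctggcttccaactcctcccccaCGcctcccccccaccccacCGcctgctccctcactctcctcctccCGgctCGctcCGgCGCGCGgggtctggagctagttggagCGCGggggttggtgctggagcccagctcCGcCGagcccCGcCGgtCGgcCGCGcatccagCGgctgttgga
Promoter entries were matched for 35 of the 42 members, with 44 windows among them. The median window of these members held 22.5 CG dinucleotides, against 7 over all 32851 promoter windows of the same length. By call at 24 h of BRM014, the median was 31 in 9 windows of members called higher and 23 in 17 windows of members called lower. It was 20 in 18 windows of members not called, and these differences were not tested. The letters GGGCGG, searched on both strands, were found in 75% of the members' windows and in 35.7% of all windows. They occurred in the Sema3c, Ephb6 and Epha2 windows printed above and not in that of Sema5b. The members' windows are of genes with counts, whereas the 32851 windows were not limited to genes with counts in these cells. Neither difference from all windows is therefore read as particular to the members.

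The other 22 members that the rule matched were listed at 0 in all 38 libraries, and nothing can be said of their expression. They are Sema3a, Sema3d, Sema3e, Sema4a, Sema4b, Plxna2, Plxnb2, Plxnc1, Nrp1, Nrp2, Slit2, Slit3, Ntn1, Ntn3, Unc5b, Unc5c, Unc5d, Efnb2, Epha3, Epha4, Epha6 and Ephb1. Each of these 22 overlaps another annotated gene on the same strand in GENCODE M21, whereas 0 of the 42 members with counts do. Both neuropilins are among those listed at 0, so the class 3 semaphorins are described here without their co-receptors.

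Library totals were 19.4 to 23.1 M counts in the first batch and 21.9 to 44.5 M in the second, and the members took 0.0652% to 0.136% of a library's counts. Summed over 10 of 10 embryonic stem cell markers, levels ran from 5210 to 7760 CPM (read counts scaled to library size) over all groups. The targeted genes gave no check of the genotype labels: Smarca5, which encodes Snf2h, and Smarca4 were listed at 0 in every library, and Ino80 had 130 and 124 CPM in Ino80ko cells with DMSO, 131 and 127 CPM in Snf2hko cells with DMSO, and 175 and 176 CPM in wild-type cells with DMSO. With BRM014, Ino80 had 138 and 146 CPM in Ino80ko, 138 and 121 CPM in Snf2hko and 162 and 165 CPM in wild-type cells.

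Scaled to exonic length, Epha2 led all members in wild-type cells, at 32.1 ± 1.8 CPM per kb after 24 h of BRM014 and 81.7 ± 8.41 CPM per kb with DMSO (SD, n = 4 each). It alone supplied 19.1% to 47.6% of the members' counts in a library. Plxna1, a plexin that serves class 3 and class 6 semaphorins, followed at 19.4 ± 1.8 with BRM014 and 20 ± 3.03 CPM per kb with DMSO. Next in DMSO came the ligand Efna4 at 16.6 ± 2.17, then the receptors Ephb4 at 10.1 ± 0.778 and Ephb3 at 9.94 ± 0.806 CPM per kb, which lay within each other's spread. With DMSO, 21 of the 42 members were above 1 CPM per kb. Plxnb3 and Epha5 were below 0.1 CPM per kb, Plxnb3 was too low to be tested in any comparison, and Epha5 was tested in the second batch only. There it passed the count filter through Snf2hko cells with BRM014 (1.56 and 0.912 CPM), with at most 0.182 CPM in any other library of that batch.

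**Figure D1:**
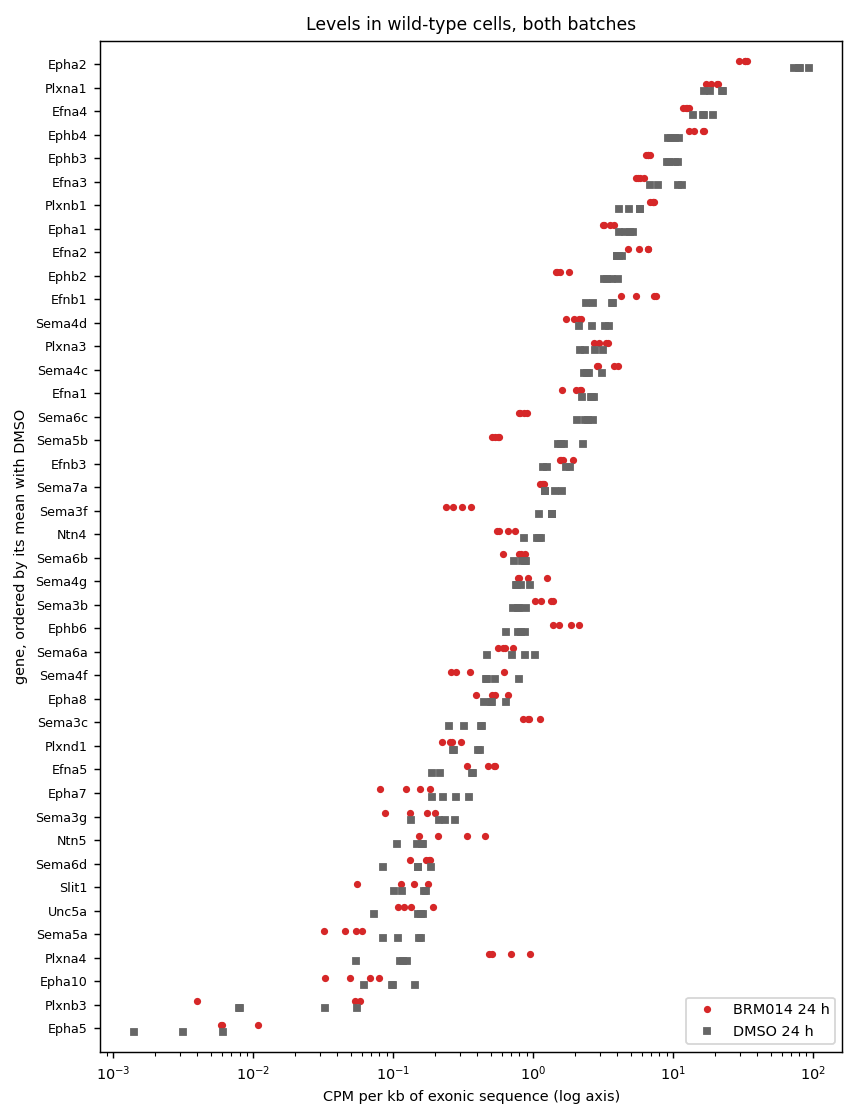
Level of each of the 42 members in wild-type cells at 24 h, in CPM per kb of exonic sequence on a log axis, 1 point per library (BRM014 red circles, DMSO grey squares, 4 libraries each, both batches); libraries at 0 (2 for Epha5, 1 for Plxnb3) are not drawn. Epha2 lies far above the rest with either treatment, and of the tested members Plxna4 moves furthest, to the right with BRM014.

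After 24 h of BRM014 in wild-type cells, 10 members rose and 13 fell of the 40 tested. This is 57.5% of those tested, beside 49.6% of all genes tested (24.8% higher and 24.8% lower), so the members' share was near the background. The median log2 change was -0.22 over the members and 0 over all genes. The tests are edgeR quasi-likelihood tests on the 8 libraries of both batches with a batch term, Benjamini-Hochberg adjusted over all 11787 genes, called at an adjusted p under 0.05. Changes are log2 ± standard error. Called members stand in all of the larger families, and both directions occur within the class 3 semaphorins, membrane semaphorins, ephrin-A ligands and EphB receptors. In bulk RNA, fewer cells of a type and less RNA per cell cannot be told apart.

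Among secreted ligands, Sema3f, which repels axons and endothelial cells, had 1.88, 1.61, 1.25 and 1.4 CPM with BRM014, against 7.07, 5.74, 7.1 and 7.06 CPM with DMSO. The groups were well separated in both batches, and Sema3f fell by 2.17 ± 0.17 on the log2 scale (adjusted p = 2.34e-08). Sema3c, which guides neural crest cells into the cardiac outflow tract, went the other way. It had 8.02, 6.74, 6.56 and 6.04 CPM with BRM014, against 2.3, 1.79, 3.04 and 3.1 CPM with DMSO. All 4 treated libraries lay above all 4 vehicle libraries (1.39 ± 0.17, adjusted p = 5.05e-06). Sema3b, whose gene ends 72.3 kb before that of Sema3f on chromosome 9, rose by 0.61 ± 0.14 (adjusted p = 0.00183), opposite to its neighbour. Sema3g was not called. The laminin-related netrin Ntn4 fell by 0.69 ± 0.17 (adjusted p = 0.0033), with 2.08, 2.46, 2.76 and 2.15 CPM with BRM014 against 4.1, 4.25, 3.2 and 4.02 CPM with DMSO.

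Of the 11 membrane semaphorins tested, 4 fell and 1 rose, so 45.5% were called, beside 49.6% of all genes. Sema5b, a transmembrane semaphorin with thrombospondin repeats, had 3.62, 4.07, 3.8 and 3.98 CPM with BRM014, against 16, 11.7, 11.2 and 10.6 CPM with DMSO (-1.66 ± 0.14, adjusted p = 4.37e-08). Its relative Sema5a, present at far fewer counts, had 0.842, 0.604, 1.02 and 1.12 CPM with BRM014, against 1.58, 2.87, 2.02 and 2.95 CPM with DMSO (-1.38 ± 0.26, adjusted p = 0.000318). Neither gene's groups overlapped. Sema6c had 5.1, 4.73, 5.34 and 4.82 CPM with BRM014, against 16, 13.9, 12.3 and 14.7 CPM with DMSO (-1.5 ± 0.12, adjusted p = 2.58e-08), and its groups were far apart as well. Sema4d, the ligand of Plxnb1, fell by 0.51 ± 0.11 and Sema4c rose by 0.38 ± 0.1. With each batch fitted alone, Sema4d was not called in the first and Sema4c not in the second.

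Sema6a, a ligand of A-type plexins that also signals as a receptor, did not pass the test over both batches (-0.29 ± 0.19, adjusted p = 0.215). It had 6.34 and 5.58 CPM with BRM014 against 4.1 and 6.25 CPM with DMSO in the first batch, and 5.34 and 4.96 CPM with BRM014 against 9.14 and 7.68 CPM with DMSO in the second. The treated libraries were alike in both batches and the vehicle libraries were not. Within the second batch Sema6a fell by 0.71 ± 0.19 (adjusted p = 0.00486), and within the first it was 0.21 higher and not called. The difference between the batches was not called either.

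Of the plexins, Plxna4, a receptor for class 3 and class 6 semaphorins, showed the largest change of any tested member. It had 13.4, 9.76, 7.21 and 6.83 CPM with BRM014, against 0.765, 1.59, 1.76 and 1.65 CPM with DMSO (2.58 ± 0.25, adjusted p = 1.27e-06). Every treated library was several fold above every vehicle library. Plxnb1 rose by 0.48 ± 0.08 (adjusted p = 0.000104), while Plxna1, the most abundant plexin, was not called (-0.05 ± 0.06). Slit1 and Unc5a were not called and had at most 1.06 CPM in each of these libraries.

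Ligands of the ephrin family changed modestly. Efnb1, a transmembrane ephrin, had 25.4, 26, 18.9 and 14.6 CPM with BRM014, against 12.8, 12.7, 9.22 and 8.27 CPM with DMSO (0.98 ± 0.1, adjusted p = 5.74e-07). Within each batch all treated libraries were above all vehicle libraries. Efna2 rose by 0.53 ± 0.12 and Efna5 by 0.69 ± 0.24 (not called in the second batch alone), whereas Efna3 fell by 0.65 ± 0.12 and Efna4 by 0.42 ± 0.09. Efna1, Efna3 and Efna4 lie together within 66.3 kb of chromosome 3, and Efna1 was the one of the 3 that was not called (-0.34 ± 0.15, adjusted p = 0.0795).

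Among the Eph receptors the most abundant member fell most steeply. Epha2 had 154, 152, 157 and 138 CPM with BRM014, against 436, 376, 373 and 342 CPM with DMSO (-1.35 ± 0.07, adjusted p = 9.7e-11). Ephb2 had 18.6, 19.7, 22.9 and 18.4 CPM with BRM014, against 42.3, 40.3, 51.1 and 45.9 CPM with DMSO (-1.17 ± 0.08, adjusted p = 8.11e-09). The treated libraries of both receptors were below all their vehicle libraries. Ephb6, whose kinase domain is inactive, rose instead, with 7.08, 8.1, 5.23 and 5.76 CPM with BRM014, against 3.29, 2.97, 3.09 and 2.41 CPM with DMSO (1.13 ± 0.15, adjusted p = 9.65e-06). Ephb4, the receptor of venous endothelium, rose by 0.57 ± 0.06, and Epha1, Epha7 and Ephb3 fell by 0.46, 0.99 and 0.58. For Epha7 the change was -1.57 in the second batch alone and -0.31, not called, in the first.

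Fitted batch by batch, 12 members rose and 12 fell of 40 in the first batch (45.8% of all genes were called there, 22.6% higher and 23.2% lower), and 8 rose and 16 fell of 41 in the second (42.3% of all genes, 20.6% higher and 21.7% lower). In these separate libraries 19 members were called in both batches, 8 of them higher in both and 11 lower in both. That is 47.5% of the 40 tested in both, beside 30.6% of all genes called alike in both batches (15.1% higher and 15.5% lower). The size of the change was called different between the batches for 1 member, Plxna3 (-0.66 ± 0.16 in the second minus the first batch, adjusted p = 0.0303, with 3.46% of all genes called, 1.98% higher and 1.48% lower). That difference was not called without any one of the 4 BRM014 libraries or without replicate 4 of DMSO (adjusted p up to 0.152), and without replicate 2 of DMSO 4 members were called. Plxna3 had 27.1 and 26.4 CPM with BRM014 against 18.4 and 17.2 CPM with DMSO in the first batch, and 21.6 and 23.2 CPM with BRM014 against 22 and 25.1 CPM with DMSO in the second. Other marker lists moved as well: summed over the neural progenitor list (4 of 6 with counts, Sox1 and Tubb3 listed at 0) levels were 45.7 to 47 CPM with BRM014 and 59.8 to 77.7 CPM with DMSO, and over the endothelial list (5 of 6, Emcn at 0) 20.7 to 24 CPM with BRM014 and 25.7 to 33.7 CPM with DMSO. Fibroblast markers (4 of 6 with counts, Col1a2 and Col3a1 at 0) summed to 1.17 to 2.01 CPM with BRM014 and 7.62 to 9.58 CPM with DMSO, and trophectoderm markers (4 of 5, Gata3 at 0) to 131 to 138 CPM with BRM014 and 158 to 221 CPM with DMSO. The embryonic stem cell sum was higher, at 6410 to 6720 CPM with BRM014 and 5810 to 6280 CPM with DMSO. Primitive endoderm markers summed to 194 to 211 CPM with BRM014 and 138 to 144 CPM with DMSO in the second batch. In the first batch these were 235 to 268 CPM and 222 to 250 CPM. Early mesoderm sums overlapped (6.69 to 8.75 CPM with BRM014, 5.45 to 8.35 CPM with DMSO). The part of these lists in the members' changes was not tested.

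**Figure D2:**
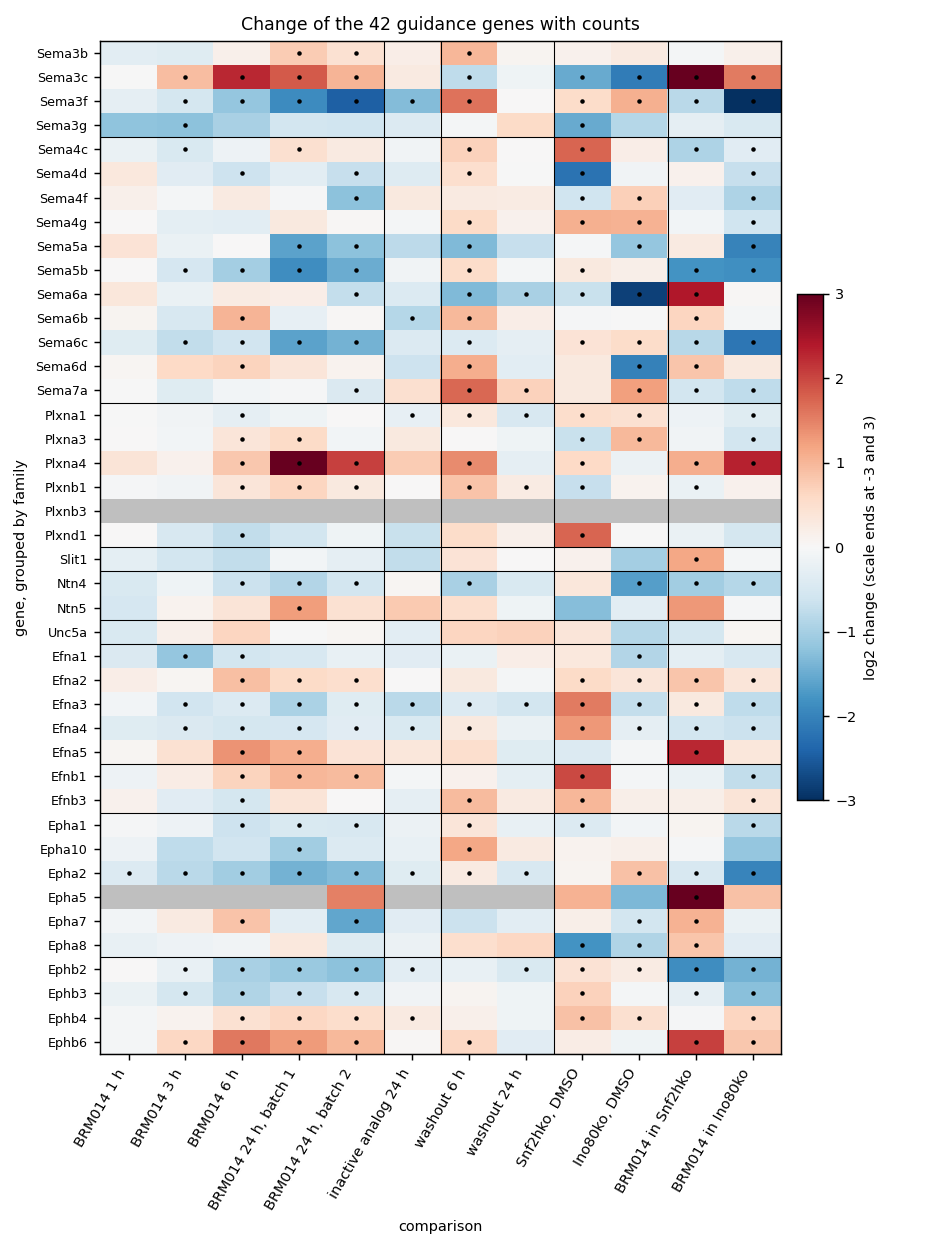
Log2 change of the 42 members (rows, grouped by family) in 12 comparisons (columns); red is higher and blue lower in the treated or knockout cells, a dot marks an adjusted p under 0.05, and grey was not tested. BRM014, analog and washout columns are set against DMSO, the next pair compares knockout with wild-type cells under DMSO, and the last pair gives BRM014 against DMSO within a knockout line. Sema3f, Sema5b, Sema6c, Epha2 and Ephb2 stay blue and Sema3c, Ephb6 and Plxna4 red under 24 h of BRM014 in every genotype.

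The time course shows when each member moved. At 30 min 0 of the 40 members tested were called by edgeR or by DESeq2, with 2 at an unadjusted p under 0.05 and 0% of all genes called. After 1 h Epha2 was the 1 member called, and it was lower (0.599% of all genes called, 0.216% higher and 0.383% lower). By 3 h, 2 members were higher and 11 lower, with 31.2% of all genes called (15.5% higher and 15.7% lower). Without replicate 1 of that group 8 were called. By 6 h, 12 were higher and 15 lower, with 48.4% of all genes called (24.9% higher and 23.5% lower). At 6 h the members' share was 67.5% against the mean of both vehicles. All 5 plexins, all 5 ephrin-A ligands and all 4 EphB receptors tested were then called in one direction or the other. Over the first batch, the first call came at 1 h for 1 member, at 3 h for 12, at 6 h for 16 and at 24 h for another 4, and 7 of the 40 tested were called at none of these times. First-call times of all genes are not given here, so this order is not read as particular to the members. There is no vehicle at 30 min, 3 h or 6 h, so 30 min was set against DMSO at 1 h, and 3 h and 6 h against the mean of DMSO at 1 h and 24 h. Against DMSO at 1 h alone, 9 members were called at 3 h and 19 at 6 h. Against DMSO at 24 h alone, 16 were called at 3 h and 26 at 6 h. The members' share at 6 h thus depended on the vehicle, and shares of all genes against a single vehicle are not given here.

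Epha2 declined early and steadily. It had 511 and 519 CPM with DMSO at 1 h and 436 and 376 CPM with DMSO at 24 h, then 520 and 543 CPM after 30 min of BRM014, 416 and 369 CPM after 1 h, 274 and 252 CPM after 3 h, 212 and 229 CPM after 6 h and 154 and 152 CPM after 24 h. From 1 h on, the treated libraries lay below the DMSO libraries of the same time or, at 3 h and 6 h, of both times. The 1 h change (-0.4 ± 0.08, adjusted p = 0.00724) was not called without either 1 h vehicle library or without the second 1 h BRM014 library (adjusted p up to 0.253). Sema5b, with 15.6 and 14.8 CPM in DMSO at 1 h and 16 and 11.7 CPM in DMSO at 24 h, held 15.2 and 15.2 CPM at 1 h of BRM014 and then 11.4 and 9.09 CPM at 3 h, 7.24 and 7.13 CPM at 6 h and 3.62 and 4.07 CPM at 24 h. Each step after 1 h was lower than the one before.

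Members that rose differed in their timing. Sema3c had 1.6 and 1.43 CPM with DMSO at 1 h and 2.3 and 1.79 CPM with DMSO at 24 h, 1.37 and 1.62 CPM after 1 h of BRM014, 3.82 and 2.91 CPM after 3 h, 9.11 and 7.82 CPM after 6 h and 8.02 and 6.74 CPM after 24 h. It was near its full level by 6 h (2.26 ± 0.18, adjusted p = 4.32e-11). Ephb6 peaked at that time, with 11.4 and 11.2 CPM at 6 h and 7.08 and 8.1 CPM at 24 h. Plxna4 came late: it had 1.45 and 1.39 CPM at 3 h, 2.34 and 2.16 CPM at 6 h and 13.4 and 9.76 CPM at 24 h. Its 6 h change (0.81 ± 0.27, adjusted p = 0.0151) was lost without any one of 4 libraries, both of the 6 h BRM014 group and replicate 1 of each vehicle, or against DMSO at 1 h alone (adjusted p up to 0.102).

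At 6 h and not at 24 h of the same batch 8 members were called, 3 of them higher (Epha7, Sema6b and Sema6d) and 5 lower (Efna1, Efnb3, Sema4d, Plxna1 and Plxnd1). Epha7, a receptor of ephrin-A ligands, rose by 0.85 ± 0.26 at 6 h, with 3.77 and 4.46 CPM, and was at 1.54 and 1.81 CPM at 24 h. Sema6b rose by 1.03 ± 0.2 at 6 h, with 5.03 and 5.61 CPM and 2.43 and 3.47 CPM at 24 h. Its vehicle had 2.02 and 1.86 CPM at 1 h and 3.51 and 3.48 CPM at 24 h, and the 6 h change was 1.46 against DMSO at 1 h alone and 0.6 against DMSO at 24 h alone (adjusted p 2.73e-05 and 0.0356). Sema4c was the 1 member called in both directions, lower at 3 h (-0.45 ± 0.13) and higher at 24 h (0.48 ± 0.14). The shares of all genes called at 6 h only, or in both directions, are not given here. Neither pattern is therefore read as particular to the members. The change at 24 h differed from that at 1 h, each against its own vehicle, for 9 members in the higher and 10 in the lower direction, with 31.6% of all genes called (15% higher and 16.6% lower). The vehicle itself was not constant, as 4 members were higher and 4 lower in DMSO at 24 h than in DMSO at 1 h (18.5% of all genes called, 8.91% higher and 9.63% lower). Without either 1 h library or replicate 2 of the 24 h group, 3 were called. Efna3 had 28.2 and 26.3 CPM in DMSO at 24 h and 14.9 and 15.5 CPM in DMSO at 1 h, and its fall at 3 h was not called against DMSO at 1 h alone (-0.15, adjusted p = 0.482).

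**Figure D3:**
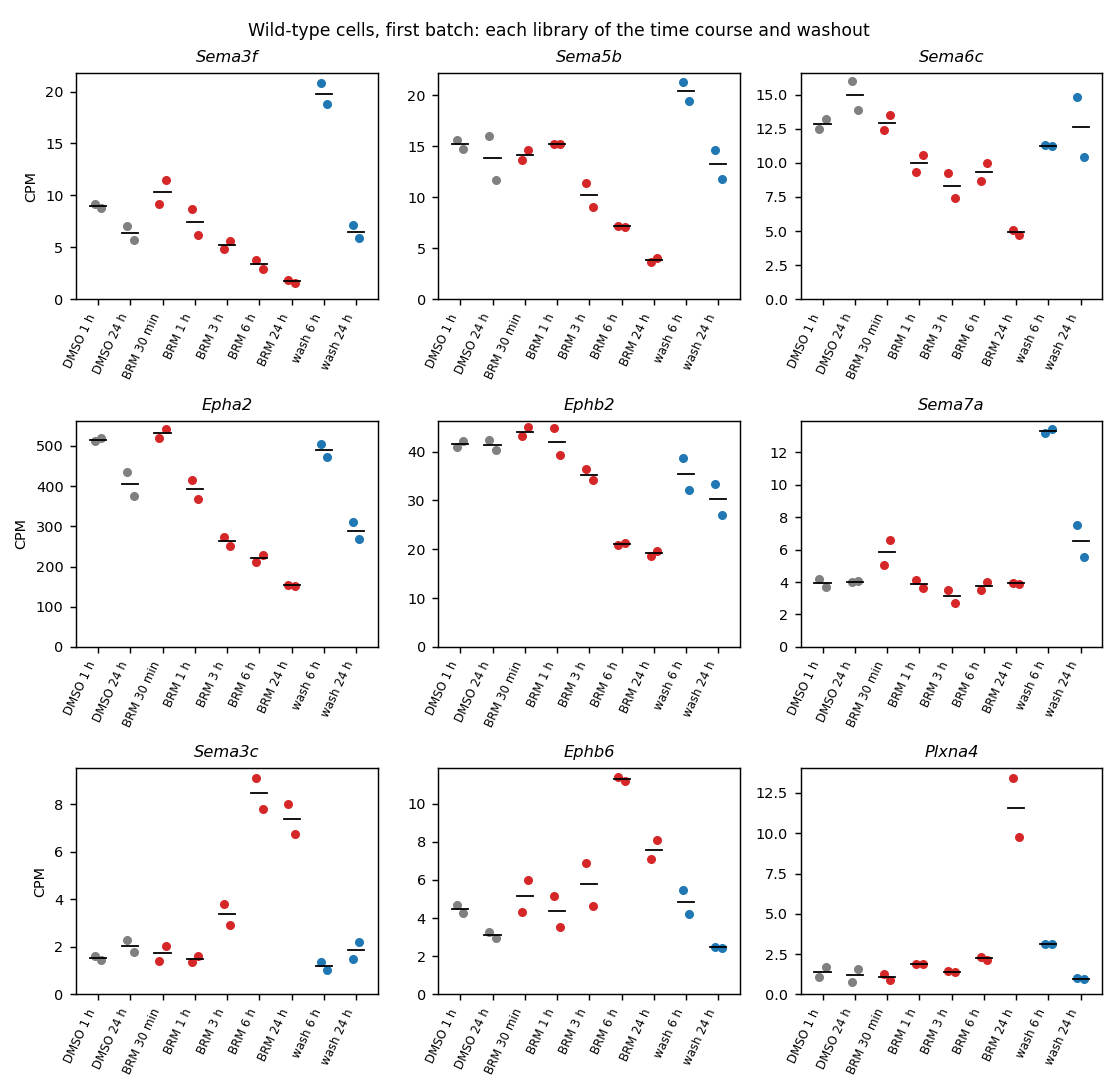
CPM of 9 members in each wild-type library of the first batch (points, 2 per group; short lines are means), with DMSO grey, BRM014 red and washout after 24 h of BRM014 blue. Sema3f, Sema5b, Sema6c, Epha2 and Ephb2 step down, Sema3c and Ephb6 are high at 6 h and Plxna4 at 24 h, and at 6 h of washout Sema3f and Sema7a stand above every other group.

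The inactive analog was given as a control compound at the same dose and at 2 of the same times. At 1 h, 0 of 40 members were called by edgeR or DESeq2 for the analog against DMSO (2 at an unadjusted p under 0.05, 0.184% of all genes called, 0.0559% higher and 0.128% lower). For BRM014 against the analog at 1 h, 0 of 40 members were called by edgeR or DESeq2 (5 at an unadjusted p under 0.05, 0.16% of all genes called, 0.0719% higher and 0.0879% lower). At 24 h the analog left 1 member higher and 7 lower than DMSO (18.4% of all genes called, 8.91% higher and 9.52% lower), or 5 in all without replicate 2 of the analog. BRM014 against the analog left 13 higher and 7 lower (35.4% of all genes called, 17.3% higher and 18.1% lower). The 2 compounds thus formed 1 pair, compared at 2 times, and both comparisons with DMSO share its libraries.

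Most members with a large response to BRM014 separated the compounds at 24 h. Plxna4 had 13.4 and 9.76 CPM with BRM014 against 1.9 and 2.04 CPM with the analog (2.55 ± 0.26, adjusted p = 4.07e-09). Sema5b had 3.62 and 4.07 CPM with BRM014 against 14.4 and 11.6 CPM with the analog (-1.76 ± 0.16, adjusted p = 8.99e-10). Sema3c, Ephb6 and Efnb1 were higher by 1.57 ± 0.22, 1.24 ± 0.21 and 1.06 ± 0.12, and Sema6c, Epha2, Ntn4 and Ephb2 lower by 1.21, 1.05, 0.94 and 0.81 on the log2 scale. None of these 9 members had overlapping groups. Sema6a was higher with BRM014 than with the analog by 0.63 (adjusted p = 0.0305), a call that was lost without any one of the 4 libraries (adjusted p up to 0.181).

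Sema3f, Efna3 and Efna4 were lower with both compounds than with DMSO and did not pass the test between the compounds. Sema3f had 1.88 and 1.61 CPM with BRM014, 2.68 and 2.57 CPM with the analog and 7.07 and 5.74 CPM with DMSO. The analog was 1.3 ± 0.2 below DMSO (adjusted p = 2.46e-05), and BRM014 was 0.58 below the analog without passing the test (95% interval -1.1 to -0.07, adjusted p = 0.0698). For Efna3 the analog was 0.8 ± 0.13 below DMSO, and BRM014 differed from the analog by -0.16 (interval -0.44 to 0.13). For Efna4 those values were 0.45 ± 0.1 below DMSO and -0.05 (interval -0.26 to 0.16), and its change with the analog was not called without replicate 2 of the analog (adjusted p = 0.0797). Efna3 had 15 and 16.4 CPM with the analog and 13.2 and 15 CPM with BRM014. Its vehicle in this batch had 28.2 and 26.3 CPM at 24 h but 14.9 and 15.5 CPM at 1 h. DMSO at 24 h in the second batch had 19 and 16.7 CPM of Efna3. Both compounds thus left Efna3 near the 1 h vehicle. Epha2, Ephb2, Plxna1 and Sema6b were also lower and Ephb4 higher with the analog than with DMSO. The analog's change in Sema6b was not called without either DMSO library or without replicate 2 of the analog (adjusted p up to 0.343), nor was that in Ephb2 without any one of the 4 libraries (up to 0.176). Marker sums with the analog at 24 h also stood apart from DMSO: 46.9 to 47.1 CPM with the analog and 59.8 to 60.6 CPM with DMSO for neural progenitors, 22.9 to 23.1 CPM with the analog and 33.2 to 33.7 CPM with DMSO for endothelium, and 4.3 to 4.35 CPM with the analog and 8.15 to 9.58 CPM with DMSO for fibroblasts. The embryonic stem cell sum was 7200 to 7380 CPM with the analog and 6120 to 6280 CPM with DMSO. Primitive endoderm markers summed to 164 to 172 CPM with the analog and 222 to 250 CPM with DMSO, and trophectoderm markers to 227 to 240 CPM with the analog and 196 to 221 CPM with DMSO. Their part in the members' changes was not tested.

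**Figure D4:**
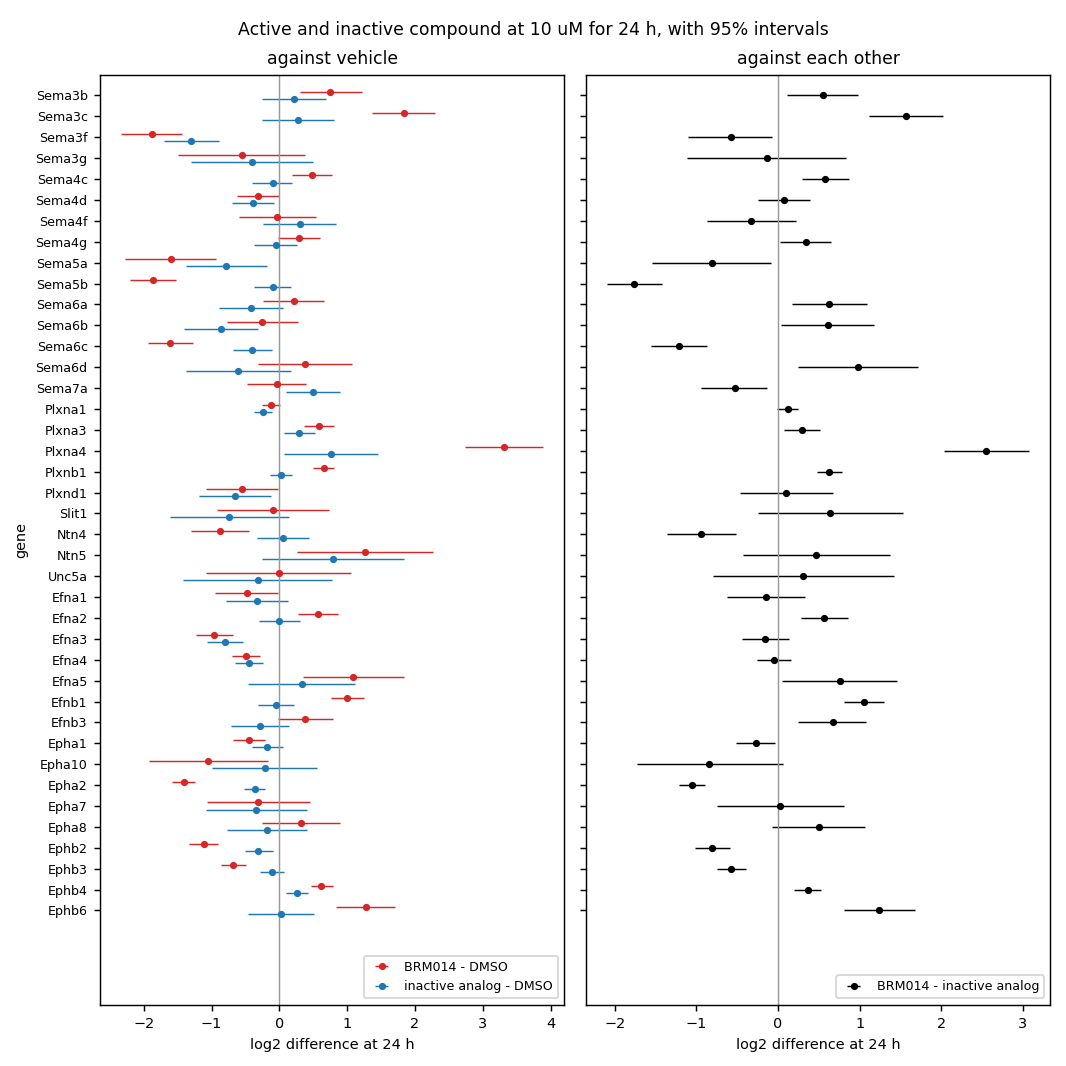
Log2 differences at 24 h with 95% intervals for the 40 members tested in the first batch; at the left BRM014 (red) and the inactive analog (blue) against DMSO, at the right BRM014 against the analog. Plxna4, Sema3c and Sema5b lie far from 0 at the right, whereas Efna3 and Efna4 lie near 0 there and below 0 for both compounds at the left.

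After 6 h of washout many members had left their BRM014 level, several of them to lie beyond the vehicle, and a few had not. Against 24 h of BRM014, 18 were higher and 7 lower at 6 h of washout (48.7% of all genes called, 25.3% higher and 23.4% lower), and 14 were higher and 14 lower at 24 h of washout (50.4% of all genes called, 25.8% higher and 24.6% lower). Against DMSO at 24 h, 18 were higher and 6 lower of 40 at 6 h (39.8% of all genes called, 20.8% higher and 19% lower), and the median was 0.39 over the members against 0.02 over all genes. Of the 11 membrane semaphorins 7 were higher and 3 lower. After 24 h of washout 2 were higher and 5 lower than DMSO (17.4% of all genes called, 8.91% higher and 8.52% lower), or 4 in all without replicate 2 of DMSO. Against 6 h of washout, 22 were lower at 24 h and no call was in the other direction (40.3% of all genes called, 19% higher and 21.3% lower), and without replicate 2 of the 24 h washout 14 were called. There was no washed vehicle, and these comparisons share the DMSO, BRM014 and washout libraries.

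Sema3f and Sema7a overshot most. Sema3f had 20.8 and 18.8 CPM at 6 h of washout, against 7.07 and 5.74 CPM with DMSO and 1.88 and 1.61 CPM at 24 h of BRM014. It was 1.62 ± 0.16 above DMSO (adjusted p = 2.56e-09), and by 24 h of washout it had 7.11 and 5.87 CPM, close to the DMSO values. Sema7a, a membrane-anchored semaphorin known for integrin signalling, had 13.2 and 13.4 CPM at 6 h of washout and 7.51 and 5.56 CPM at 24 h of washout, against 3.96 and 3.87 CPM with BRM014 and 4.01 and 4.05 CPM with DMSO. At 6 h of washout it was 1.72 ± 0.18 above DMSO (adjusted p = 1.41e-08), while at 24 h of BRM014 it was close to DMSO in these libraries. The smaller excess at 24 h of washout (0.69) was not called without replicate 1 of the washout or replicate 2 of DMSO (adjusted p up to 0.207).

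Among the 18 members above DMSO at 6 h of washout were also Plxna4 (3.11 and 3.11 CPM), Sema3b (8.16 and 7.21 CPM), Efnb3 (7.37 and 7.66 CPM) and Plxnb1 (77 and 78.1 CPM). DMSO libraries at 24 h had 0.765 and 1.59 CPM of Plxna4, 4.23 and 3.43 CPM of Sema3b, 3.78 and 4 CPM of Efnb3 and 46.2 and 39.8 CPM of Plxnb1. Both washout libraries were above both vehicle libraries for each of the 4. At 24 h of BRM014 Plxna4 had 13.4 and 9.76 CPM, so at washout it lay between its BRM014 and DMSO levels. Sema3b had 6.64 and 6.39 CPM at 24 h of BRM014, Efnb3 4.95 and 5.23 CPM and Plxnb1 65.5 and 70 CPM. For Sema3b, Efnb3 and Plxnb1 the washout libraries were above the BRM014 libraries too. Sema5a and Ntn4 stayed below the vehicle. Sema5a had 0.965 and 0.791 CPM at 6 h of washout, against 0.842 and 0.604 CPM at 24 h of BRM014 and 1.58 and 2.87 CPM with DMSO (-1.32 from DMSO, adjusted p = 0.00125, and 0.0761 without replicate 2 of DMSO). Ntn4 had 1.75 and 2.52 CPM at 6 h of washout, against 2.08 and 2.46 CPM at 24 h of BRM014 and 4.1 and 4.25 CPM with DMSO (-0.98 from DMSO, adjusted p = 0.000452). At 6 h of washout both were near their BRM014 values. Sema6a went below the vehicle, with 2.06 and 2.08 CPM at 6 h of washout (-1.32 ± 0.25, adjusted p = 0.000142) and 2.2 and 2.98 CPM at 24 h, against 4.1 and 6.25 CPM with DMSO. At 24 h of washout its change (-0.98) was not called without replicate 2 of DMSO or replicate 1 of the washout (adjusted p up to 0.163).

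Sema3c, which BRM014 had raised, fell to 1.36 and 1.04 CPM at 6 h of washout, against 8.02 and 6.74 CPM with BRM014 (-2.61 ± 0.25, adjusted p = 8.59e-10). Its position below DMSO (-0.77 ± 0.29) was not called by DESeq2 or without either washout library or replicate 1 of DMSO (adjusted p up to 0.235). Followed in the first batch, 16 members that fell in the second batch had a median of -0.78 against DMSO at 24 h of BRM014. At 24 h of washout it was -0.24, and 11 of them were not called. For 8 members that rose there the medians were 0.88 and -0.13, and 7 were not called after washout. Some of the 16 had hardly fallen with BRM014 in the first batch (Sema4f -0.03, Sema7a -0.04, Sema6a 0.21). For those, the lack of a call after washout is no measure of recovery. The same shares over all genes are not given here. Most marker sums were also higher at 6 h of washout than with DMSO, but that of primitive endoderm was not (219 CPM in both libraries against 222 to 250 CPM with DMSO). The embryonic stem cell sum was 6470 to 6590 CPM against 6120 to 6280 CPM with DMSO. Of its 10 markers, however, 3 were called higher and 3 lower, with a median log2 change of 0.03. The neural progenitor sum was 135 to 144 CPM against 59.8 to 60.6 CPM with DMSO, and the endothelial sum 102 to 106 CPM against 33.2 to 33.7 CPM with DMSO. Of 5 endothelial markers tested, 2 were called higher and 1 lower. For trophectoderm the sum was 285 to 291 CPM against 196 to 221 CPM with DMSO, for early mesoderm (5 of 5 with counts) 14.9 to 15.1 CPM against 7.38 to 8.35 CPM, and for fibroblasts 10.5 to 13.1 CPM against 8.15 to 9.58 CPM. Their part in the members' rise was not tested.

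Washout after 1 h of BRM014 touched fewer members. Against 1 h of BRM014, 4 were higher and 1 lower after 30 min (5.9% of all genes called, 2.88% higher and 3.01% lower). After 1 h of washout 4 were higher and no call was in the other direction (3.98% of all genes called, 3.02% higher and 0.959% lower). Without replicate 2 of BRM014, 1 member was called at 30 min and 1 at 1 h. Without replicate 2 of the washout group, 1 was called at 30 min and 2 at 1 h. Ntn4 had 8.19 and 9.52 CPM after 1 h of washout, against 4.34 and 4.94 CPM after BRM014 (0.94 ± 0.17, adjusted p = 0.000583), and the groups did not overlap. Ephb3, Efna4 and Sema6d were the other members higher at 1 h, and each of these calls was lost without replicate 2 of BRM014 (adjusted p 0.0963, 0.303 and 0.304).

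Under DMSO, Snf2hko cells differed from wild-type cells in 16 members that were higher and 9 that were lower of 41 tested, or 61% beside 56.5% of all genes (28.9% higher and 27.7% lower). Efnb1 had 31.8 and 37.8 CPM in Snf2hko cells, against 9.22 and 8.27 CPM in wild-type cells (1.97 ± 0.13, adjusted p = 1.86e-10). Sema4c had 35.4 and 39.3 CPM in Snf2hko cells, against 11.1 and 10.7 CPM in wild-type cells (1.75 ± 0.11, adjusted p = 1.22e-10). Both were several fold higher in the knockout. Sema4d had 5.74 and 5.56 CPM in Snf2hko cells, against 25.1 and 26.7 CPM in wild-type cells (-2.21 ± 0.14, adjusted p = 1.06e-10), and its receptor Plxnb1 was also lower (-0.69 ± 0.07). Plxnd1, a plexin of developing vessels, was higher by 1.74 ± 0.17 and the receptor Epha8 lower by 1.8 ± 0.26.

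Of the ephrin-A genes of chromosome 3, Efna3 and Efna4 passed the test and Efna1 did not. Efna3 had 51 and 54.7 CPM in Snf2hko cells, against 19 and 16.7 CPM in wild-type cells (1.55 ± 0.09, adjusted p = 2.38e-11). Efna4, 10.4 kb further on, had 59.9 and 61.6 CPM in Snf2hko cells, against 26.7 and 22.4 CPM in wild-type cells (1.29 ± 0.09, adjusted p = 7.23e-10). Efna1, 32.8 kb to the other side of Efna3, had 5.31 and 5.98 CPM in Snf2hko cells, against 4.82 and 4.09 CPM in wild-type cells (0.32 ± 0.16, adjusted p = 0.0947). Primitive endoderm markers (5 of 6 with counts, Pdgfra listed at 0) summed to 661 to 689 CPM in Snf2hko cells and 138 to 144 CPM in wild-type cells, and trophectoderm markers (Gata3 listed at 0) to 573 to 581 CPM in Snf2hko cells and 158 to 172 CPM in wild-type cells. Endothelial markers summed to 57.5 to 60.4 CPM in Snf2hko cells and 25.7 to 27.1 CPM in wild-type cells, and early mesoderm markers to up to 14.3 CPM in Snf2hko cells and up to 6.36 CPM in wild-type cells. Of 4 early mesoderm markers tested, however, 1 was called higher and 1 lower, with a median log2 change of -0.2. The embryonic stem cell sum was lower, at 5420 to 5730 CPM in Snf2hko cells and 5810 to 6160 CPM in wild-type cells. Their part in the members' differences was not tested.

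Under DMSO, Ino80ko cells had 11 members higher and 10 lower than wild-type cells, of 41 tested, with 45% of all genes called (22.1% higher and 22.9% lower). Sema6a had 1.44 and 1.02 CPM in Ino80ko cells, against 9.14 and 7.68 CPM in wild-type cells (-2.79 ± 0.22, adjusted p = 7.78e-09). Sema3c had 0.718 and 0.722 CPM in Ino80ko cells, against 3.04 and 3.1 CPM in wild-type cells (-2.1 ± 0.2, adjusted p = 6.98e-08). Sema6d and Ntn4 were lower too, by 2.03 and 1.66 on the log2 scale. Sema7a had 12 and 11.7 CPM in Ino80ko cells, against 5.34 and 4.75 CPM in wild-type cells (1.22 ± 0.13, adjusted p = 3.44e-07), and Sema3f, Sema4g, Plxna3 and Epha2 were higher by 1.06, 1.05, 0.97 and 0.87. Sema3c was lower in both knockouts, and both comparisons share the wild-type libraries. The primitive endoderm sum was 67.3 to 72.9 CPM and the trophectoderm sum 88.7 to 93.7 CPM in Ino80ko cells, both below the wild-type range. The embryonic stem cell sum was higher, at 6570 to 6830 CPM in Ino80ko cells and 5810 to 6160 CPM in wild-type cells. So was the neural progenitor sum, at 82.5 to 85.9 CPM and 77.5 to 77.7 CPM, and the fibroblast sum, at 9.56 to 10.5 CPM and 7.62 to 8.93 CPM. Of 3 neural progenitor markers tested, however, 0 were called higher and 1 lower, with a median log2 change of 0. Of 3 fibroblast markers tested, 1 was called higher and 1 lower. The part of these lists in the members' differences was not tested.

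BRM014 for 24 h changed 24 of 41 members in Snf2hko cells (13 higher, 11 lower, with 56.9% of all genes called, 28.7% higher and 28.2% lower) and 25 of 41 in Ino80ko cells (6 higher, 19 lower, with 44.5% of all genes called, 22% higher and 22.6% lower). The 41 include Epha5, which passed the count filter only through Snf2hko cells with BRM014, so its test there was not independent of the filter. Across both knockouts and the second-batch wild type, 13 members (31.7% of 41) were called in the same direction in all 3 genotypes, beside 20.8% of all genes (9.92% higher and 10.9% lower). Sema3c, Ephb6, Efna2 and Plxna4 rose in each, and Sema3f, Sema5b, Sema6c, Sema7a, Ntn4, Efna4, Epha2, Ephb2 and Ephb3 fell in each. Another 5 members (12.2%) were called in opposite directions in some pair of genotypes, beside 6.76% of all genes, namely Sema6a, Efna3, Efnb1, Epha7 and Plxnb1.

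The response to BRM014 differed between Snf2hko and wild-type cells for 19 of 41 members, 13 with a more positive and 6 with a more negative change (32.6% of all genes called, 15.8% higher and 16.8% lower). Sema6a had 32.5 and 23.3 CPM with BRM014 and 5.57 and 5.15 CPM with DMSO in Snf2hko cells, against 5.34 and 4.96 CPM with BRM014 and 9.14 and 7.68 CPM with DMSO in wild-type cells. It rose in the knockout and fell in the wild type of that batch, and the difference in response was 3.1 ± 0.25 (adjusted p = 3.73e-08). Sema3c had 13 and 13.7 CPM with BRM014 and 1.02 and 1.14 CPM with DMSO in Snf2hko cells (3.64 ± 0.16), a steeper rise than in wild-type cells by 2.6 ± 0.22 (adjusted p = 7.75e-08).

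An EphA receptor and an ephrin-A ligand also rose with BRM014 in Snf2hko cells. Epha7 had 8.05 and 6.53 CPM with BRM014 against 3.36 and 3.8 CPM with DMSO in Snf2hko cells, and 1.22 and 0.795 CPM with BRM014 against 3.46 and 2.79 CPM with DMSO in wild-type cells (difference 2.61 ± 0.31, adjusted p = 3.86e-06). Its ligand Efna5 had 5.43 and 5.29 CPM with BRM014 against 1.02 and 1.26 CPM with DMSO in Snf2hko cells (2.25 ± 0.21), and the difference from wild type was 1.83 ± 0.32 (adjusted p = 0.000261). Both genes were higher in every treated Snf2hko library than in any other library of the batch. Epha5, a close relative nearly silent elsewhere, had 56 and 39 counts with BRM014 against 4 and 3 counts with DMSO in Snf2hko cells, and was tested only because of the treated group. Sema3f fell less in Snf2hko cells, with 6.3 and 5.73 CPM with BRM014 against 10.8 and 10.4 CPM with DMSO (difference 1.65 ± 0.21, adjusted p = 1.1e-05). The primitive endoderm sum was 1000 to 1160 CPM in Snf2hko cells with BRM014 and 661 to 689 CPM with DMSO, and the early mesoderm sum 28.1 to 33.5 CPM with BRM014 and up to 14.3 CPM with DMSO. Other sums fell in these cells. The endothelial sum was 27.1 to 30.2 CPM with BRM014 and 57.5 to 60.4 CPM with DMSO. For trophectoderm it was 415 to 466 CPM and 573 to 581 CPM, and for neural progenitors 57.8 to 62.6 CPM and 88.2 to 92.8 CPM. The part of these lists in the members' changes was not tested.

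In Ino80ko cells the response differed from wild type for 10 members, 1 more positive and 9 more negative (9.03% of all genes called, 4.16% higher and 4.87% lower). Between 4 and 7 were called when 1 library was left out, with 4 or 5 without Ino80ko replicate 1 of DMSO, Ino80ko replicate 2 of BRM014 or either wild-type BRM014 library. Efnb1 had 4.69 and 5.49 CPM with BRM014 against 7.87 and 8.99 CPM with DMSO in Ino80ko cells, and 18.9 and 14.6 CPM with BRM014 against 9.22 and 8.27 CPM with DMSO in wild-type cells. It fell in the knockout and rose in the wild type, with a difference of -1.68 ± 0.2 (adjusted p = 2.1e-05). Epha2 had 168 and 167 CPM with BRM014 against 673 and 646 CPM with DMSO in Ino80ko cells, and the fall was steeper than in wild type by 0.69 ± 0.1 (adjusted p = 0.000135). Starting higher, Epha2 thus ended close to the 157 and 138 CPM of treated wild-type cells. Sema6a stayed low in Ino80ko cells under both treatments, with 0.955 and 1.55 CPM with BRM014 against 1.44 and 1.02 CPM with DMSO.

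**Figure D5:**
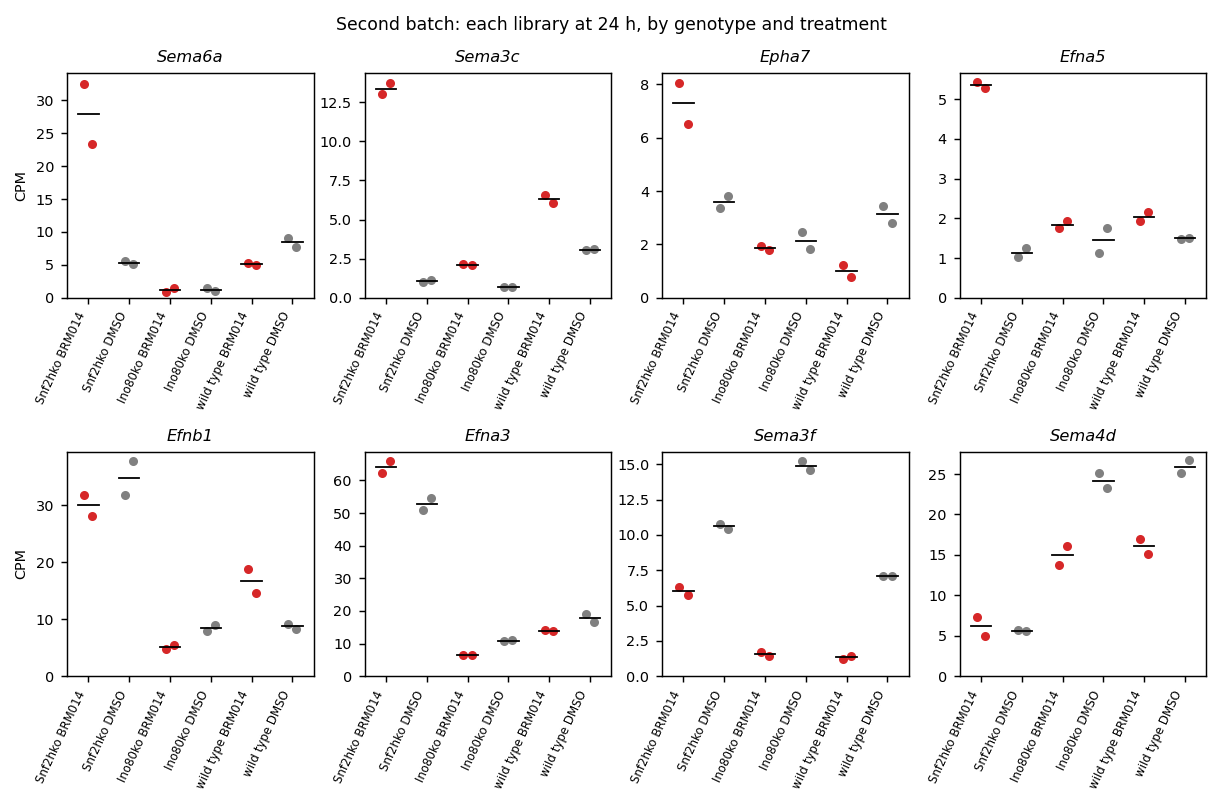
CPM of 8 members in each library of the second batch (points, 2 per group; short lines are means) in Snf2hko, Ino80ko and wild-type cells, with BRM014 red and DMSO grey. Sema6a, Sema3c, Epha7 and Efna5 are highest in Snf2hko cells with BRM014, Efnb1 and Efna3 are high in Snf2hko cells under both treatments, and Efnb1 moves in opposite directions in Ino80ko and wild-type cells.

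Of 54 other genes of these pathways (receptors such as Robo and Dcc, and intracellular partners of plexins and Ephs), 35 were tested after 24 h of BRM014 in wild-type cells, and 9 rose and 16 fell. That is 71.4% of those tested, beside 49.6% of all genes (24.8% in each direction). The kinase Pak1, an effector of Rac and Cdc42, rose by 1.46 ± 0.07 (adjusted p = 4.91e-11). The collapsin response mediators Crmp1 and Dpysl4, which relay semaphorin signals to the cytoskeleton, fell by 1.53 ± 0.1 and 1.84 ± 0.14. Robo4, the Robo receptor of endothelium, fell by 2.69 ± 0.21, Ablim1, an actin-binding protein, by 2.14 ± 0.15, and Mical2, an actin-oxidising enzyme, by 1.58 ± 0.14 (all with adjusted p of at most 1.11e-07).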

How the data were processed

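RNA of 38 samples was sequenced as stranded total RNA libraries, per the labels' protocols. The deposited values are raw read counts per gene, 1 column per library. The tools named in the submitters' processing notes are STAR and bcl2fastq 2.17, and the build is GRCm38 (mm10). Which counting program and annotation the authors used is not given in the sources used here.

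Testing used edgeR 4.0.16 (R 4.3.3) after filterByExpr (minimum count 10, minimum total 15) and TMM scaling, with robust quasi-likelihood F-tests on the counts. P-values were adjusted by Benjamini and Hochberg's method over all genes tested, separately for each of 27 comparisons, and a gene was called when its adjusted p was below 0.05. Wild type at 24 h was fitted on 8 libraries with a batch term (11787 genes). Each batch had 1 further fit over all its groups, since a group holds 2 libraries: 12517 genes with 13 residual degrees of freedom in the first, and 13130 genes with 6 in the second. CPM are counts after TMM scaling over all 38 libraries, and CPM per kb divide by the deposited exonic length. No pair of replicates held identical values, and chi-square per degree of freedom between replicates was 2.04 to 25.36, beyond sampling noise in each pair.

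Sema6a and Sema3c are given throughout. In the 24 h comparison the rule names called members with a mean log2 CPM of at least 0 and a change of at least 2-fold, and in each other comparison up to 6 called members of that level with the largest change, plus those named at 24 h. Members named beyond it were chosen after their values were seen. Of other guidance genes, the 6 with the smallest adjusted p were named. The members and lists were chosen with earlier results of these data known. Alternatives were RLE size factors, no filter, DESeq2 1.42.0, fits on the compared libraries alone, a replicate block, single vehicles at 3 h and 6 h, and leaving out each library.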

Additional observations from a re-analysis of the deposited data

Results flagged for a closer look

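In the 4 wild-type libraries with DMSO for 24 h, the lowest library stood apart for 2 members, Plxna4 at 0.765 CPM and Sema3f at 5.74 CPM. Here 20 groups were examined for a library far from the others, and chance flags about 1 in 20 groups. Both libraries belong to the first batch, and leaving each out in turn kept both genes called at 24 h of BRM014.

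The response to BRM014 at 24 h differed between genotypes by the test of the difference for several members. Snf2hko minus wild type it was 3.1 for Sema6a, 2.61 for Epha7, 2.6 for Sema3c, 1.83 for Efna5, 1.65 for Sema3f, 1.51 for Sema5a, 1.07 for Ephb6, 0.79 for Epha2, 0.57 for Sema6c, -0.64 for Ephb2 and -0.93 for Plxna4 on the log2 scale. Ino80ko minus wild type it was 1.37 for Epha7, -0.69 for Epha2, -0.76 for Ephb3, -0.76 for Sema6c, -0.82 for Sema3f and -1.68 for Efnb1. Calls were lost under some of the 13 alternatives for 4 of these: Sema3f in Ino80ko in 9 (adjusted p up to 0.159), Sema6c in Snf2hko in 5 (up to 0.167), Sema6c in Ino80ko in 4 (up to 0.115) and Epha7 in Ino80ko in 3 (up to 0.0716).

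The 24 h response differed from the 1 h response by 2.92 for Plxna4, 1.86 for Sema3c, 1.32 for Ephb6, -1.02 for Epha2, -1.13 for Ephb2, -1.24 for Sema6c, -1.6 for Sema3f, -1.86 for Sema5b and -2.0 for Sema5a. Between batches it differed for Plxna3, by -0.66 in the second minus the first.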

How the results depend on the processing

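Of the 27 counts of called members, 16 stayed within 1.5 times their value under every alternative that was run. Fitted on the compared libraries alone, 3 members were called for DMSO at 24 h against 1 h (8 in the report), 4 for the analog at 24 h (8), 0 for washout of 30 min (5) and 2 for washout of 1 h (4) against BRM014, and 3 for washout of 24 h against DMSO (7). For the difference between batches (1), 4 were called without a filter, 2 by DESeq2 and 4 with the replicate block. Without a filter 1 was called for BRM014 against the analog at 1 h (0). Leaving out 1 library at a time gave 0 to 4 calls for the difference between batches, 0 to 1 at 1 h of BRM014, 8 to 14 at 3 h, 3 to 6 for DMSO at 24 h against 1 h and 5 to 8 for the analog at 24 h. It gave 1 to 4 for washout of 30 min, 1 to 5 for washout of 1 h, 4 to 8 for washout of 24 h against DMSO, 14 to 23 for washout of 24 h against 6 h and 4 to 7 for the response in Ino80ko cells minus wild type (10). The cause was not tested, beyond the smaller number of libraries in such fits.

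Among 195 results for named members and 1942 refits, 0 reversed, and 157 lost their call: 124 of 962 that left out a library, 18 of 185 on the compared libraries alone, 6 of 195 by DESeq2, 4 of 19 with DMSO at 1 h alone, 2 of 19 with DMSO at 24 h alone, 2 of 195 without a filter and 1 of 195 with RLE size factors. Replicate numbers share no stated culture. For the more abundant genes, the log2 difference between the first and second replicate of a group was correlated between pairs of groups within a batch. These correlations ran from -0.53 to 0.63 in the first batch, with 26 of 78 pairs over 0.1. In the second batch they ran from -0.43 to 0.52, with 5 of 15 over 0.1. The replicate block changed 0 of 172 calls of named members. It could not be fitted for either knockout against wild type, whose numbers differ. Genes listed at 0, 2 libraries per group, the missing vehicles at 30 min, 3 h and 6 h and the missing washed vehicle limit these results.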
